A study of Mus musculus with 14 samples.

Results

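The interleukins are a set of numbered secreted signals of the immune system, and they were followed here together with their receptors in the lymphatic endothelium of mouse lymph nodes. The members were the genes whose symbol on the array starts with Il and a digit, with the exception of Il34, on rows of the scanner files that are not controls. This gave 82 genes of 34797 gene names on the array. By known role they were 37 ligands, 38 receptor chains, 6 antagonists or decoy receptors (Il1rn, Il1f5, Il18bp, Il1r2, Il13ra2 and Il22ra2) and 1 enzyme, Il4i1, an amino acid oxidase named for its induction by interleukin 4. They were measured with 105 probes. The 20 members with more than 1 probe were represented by the probe with the highest mean signal over the 14 arrays, and 79 members were matched to a current gene by RefSeq accession and 3 by symbol. Of the older symbols, Il28b is today Ifnl3 and Il28ra is Ifnlr1.

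The study compared lymphatic endothelial cells of C57Bl/6 mice from the subcapsular sinus, where afferent lymph enters the node, with those of the medullary sinus on the efferent side. In 5 subcapsular and 5 medullary samples, 50 cells each were taken by laser capture microdissection (LCM), from frozen node sections stained for CD31, an endothelial surface protein, and a macrophage protein. In 2 subcapsular and 2 medullary samples, 1200 cells each were sorted by fluorescence (FACS) from nodes digested with liberase and DNase I, with a cocktail against lineage markers (among them CD3e, CD11b and B220), antibodies to CD73 and podoplanin, and a dye for dead cells. The labels name no treatment and no genotype beyond the strain. RNA was amplified with the SuperAmp method and labelled with Cy3, and each sample was hybridised to 1 Agilent array. The labels call the samples biological replicates and tie none of them to an animal, so the p-values measure the spread between these samples, and they do not say which CD73 staining defined which sinus.

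Most interleukins act over short distances. A ligand binds a receptor built from a private chain and a chain shared by a family, such as the common gamma chain (Il2rg), gp130 (Il6st), the interleukin 1 receptor accessory protein (Il1rap) or Il10rb, so that a shared chain serves a whole group of ligands. Lymphatic endothelial cells of the node are known as a source of interleukin 7, which keeps naive T cells alive, and endothelial cells of several beds carry receptors for interleukins 1, 3, 4 and 6, while many other receptor chains in the family are best known from T cells, B cells and myeloid cells.

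A level is given here as log2 of the background-adjusted signal minus the 75th percentile of that array, so 0 is the signal at that percentile. Levels of different probes cannot be set against each other, and each gene is therefore compared with itself across arrays. A probe counted as measured on an array when the scanner software marked it as well above background, and a level without that mark stands only for a bound. Over all gene names, 57.48% to 82.58% were above background on an array. The arrays lay on 2 slides, slide 1 with medullary LCM replicates 1 to 3 and the whole subcapsular LCM group, and slide 2 with the FACS arrays and the remaining medullary LCM replicates, 4 and 5. Prox1, the transcription factor of lymphatic identity, was above background on all 14 arrays, while Lyve1, a hyaluronan receptor of lymphatic endothelium, was so on 3 of 5 subcapsular LCM, 3 of 5 medullary LCM, 1 of 2 subcapsular FACS and 0 of 2 medullary FACS arrays. Markers of other cells were also present: 6 of 9 macrophage markers, 5 of 5 B cell markers and 5 of 7 T cell markers were above background on all 14 arrays, and none of them was missing from every array. So were 5 of 7 blood endothelial and venule markers, again with none missing from every array. The summed level (log2 of summed signals) of 9 macrophage markers was 8.29 to 10.37 in subcapsular and 6.21 to 7.4 in medullary LCM samples, and 6.57 to 6.82 and 6.16 to 6.83 in the corresponding FACS samples. For 5 B cell markers the ranges in the same order were 7.08 to 8.72, 6.11 to 7.08, 7.13 to 7.81 and 4.9 to 6.59, and for 7 T cell markers 4.12 to 5.53, 4.63 to 5.23, 5.4 to 5.95 and 4.05 to 4.18. For 6 pan-endothelial markers they were 3.23 to 6.91, 4.43 to 5.83, 4.56 to 5.67 and 1.25 to 1.88. For 6 lymphatic endothelial markers they were -0.38 to 2.15, -1.27 to 1.34, -0.96 to -0.44 and 0.13 to 0.76. The 7 blood endothelial and venule markers summed to 4.91 to 7.3, 7.66 to 8.36, 6.2 to 7.68 and 2.17 to 5.68 in that order.

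Each value rests on a probe of 60 bases, and the probes behind the results that follow are shown by a window of 30 bases, read from the scanner files with their mm9 coordinates. The 4 members that passed the test between isolations come first. Capitals mark the 5 letters ATTTA, the core of the AU-rich element that shortens the life of many cytokine messages.
Il4i1 (chr7:52096115-52096144, plus strand): ctcttcagggcagacagaccacctacacta
Il10rb (chr16:91425758-91425787, plus strand): ttgtgctcactaaaacaaggatcacATTTA
Il17ra (chr6:120432880-120432909, plus strand): caagtgtgttgctcattccttgaatATTTA
Il2rb (chr15:78311139-78311168, minus strand): gtctattctggggtgggtttttctgtgaag
The next 3 probes all belong to Il1rap, the member that passed the interaction test, and gave unequal values. They lie within 1 gene on the plus strand, and the probe for ENSMUST00000096129 had the highest mean and stands for the gene. The others are those for NM_134103 and NM_008364.
Il1rap (chr16:26725291-26725320, plus strand): ccattttctttaaccagctcttccttgatc
Il1rap (chr16:26701498-26701527, plus strand): gatgttgtcaacgcctttgtttctaaatgt
Il1rap (chr16:26716515-26716544, plus strand): catacatctttcagtagtcattggcaaaat
A further 4 probes show why the levels of Il15ra and Il4ra are read with care. The first of each pair was chosen by the rule of highest mean and holds a run of alternating T and G, in capitals, and the second does not.
Il15ra (chr2:11655434-11655463, plus strand): gactatatatgtaTGTGTGTGTGTGTGTGT
Il15ra (chr2:11654809-11654838, plus strand): aaaccatggaaacagtaccaatgactgtga
Il4ra (chr7:132712555-132712584, plus strand): gaggaacagtgccagcacTGTGTGTGTGTG
Il4ra (chr7:132722922-132722951, plus strand): acctgttgggaattccaaccctcaccagtc
The last 4 are ligands. The first, Il7, was above background on no array, and the probes of Il10, Il12a and Il9 hold ATTTA (capitals) in 1, 4 and 3 places.
Il7 (chr3:7573237-7573266, minus strand): aagatagaaatgcacttattccaaagatac
Il10 (chr1:132920949-132920978, plus strand): cctcgtttgtacctctctccgaaatATTTA
Il12a (chr3:68502356-68502385, plus strand): gcctATTTAtATTTATTTAttttctATTTA
Il9 (chr13:56580690-56580719, minus strand): agatgctATTTAttctATTTAttgaATTTA
The run of 6 TG units was rare, with 115 of 55681 probes, and 114 of those 115 (99.1%) were above background on all 14 arrays against 32.3% of all probes. Il15ra and Il4ra were the 2 members whose probe held it. The letters ATTTA stood in the probes of 10 of 37 ligands (27.0%) and 4 of 38 receptors (10.5%), against 7.7% of all probes, and in none of the 6 antagonists. Read on the other strand, as TAAAT, they stood in 10.8% of ligand, 10.5% of receptor and 9.7% of all probes, and in 2 of the 6 antagonists. The ligands with ATTTA were Il5, Il9, Il10, Il11, Il12a, Il17a, Il1f6, Il1f9, Il21 and Il31, and the receptors Il10rb, Il17ra, Il1rapl2 and Il21r. A match is a property of the probe and was not tested for a function.

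Most receptor chains were measured on many arrays and a group of ligands on none. Of 38 receptors, 16 (42.11%) were above background on all 14 arrays and none was missing from every array, whereas 9 of 37 ligands (24.32%) were on all arrays and 4 (10.81%) on none. Over all gene names the shares were 39.51% and 2.03%, and the gap between ligands and receptors was not tested. The 9 ligands on every array were Il16, Il17d, Il18, Il1b, Il22, Il24, Il25, Il27 and Il28b. The ligands on no array were Il5, Il7, Il12a and Il17a, the last being the signature product of Th17 cells, and among the antagonists Il1f5, an inhibitor in the interleukin 36 system, was on none.

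**Figure D1:**
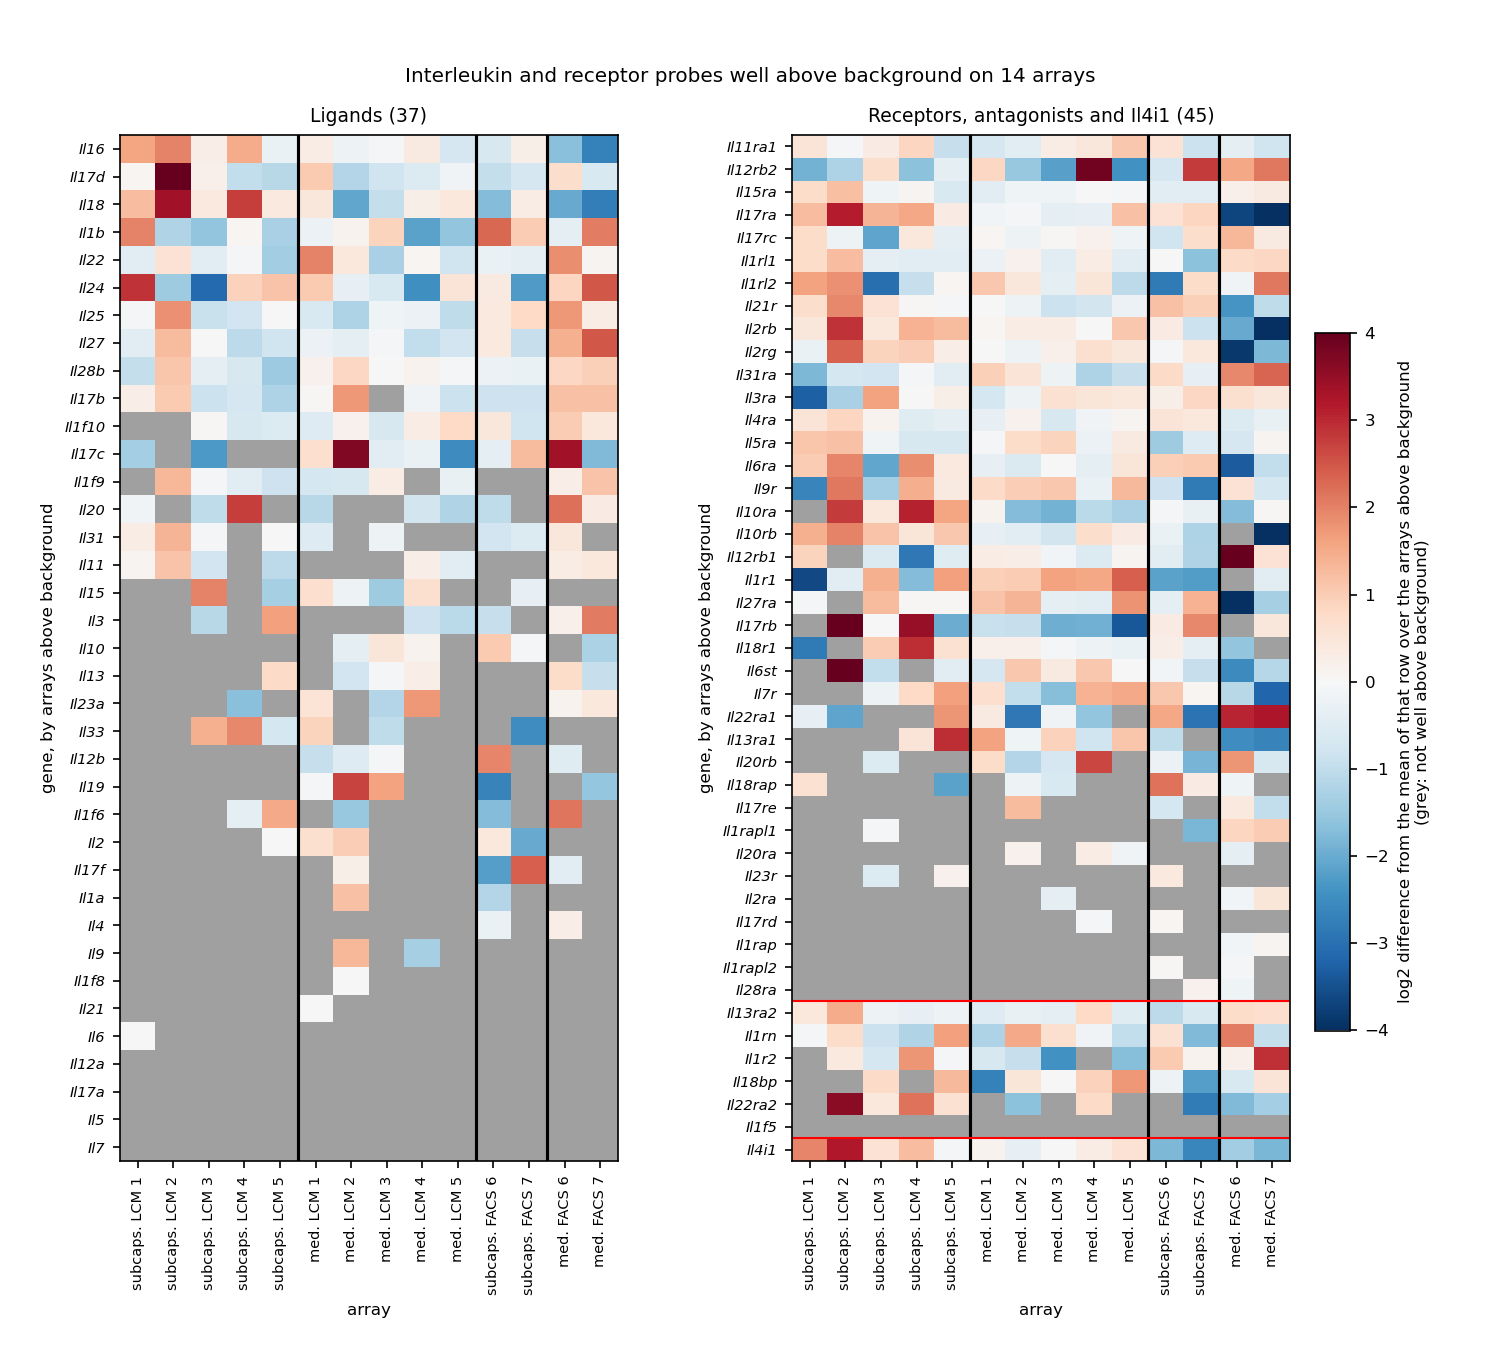
Map of the 82 members (rows, ordered by the number of arrays above background within ligands, receptors, antagonists and Il4i1, with red lines between the last 3 classes) over the 14 arrays (columns, with black lines between the 4 groups). Grey marks a probe not well above background, and colour gives the log2 difference of an array from that row's own mean, so it compares arrays within a row and not genes; 28 rows are coloured throughout and 5 are grey throughout.

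The number of members above background was 41, 40, 53, 46 and 55 on the subcapsular LCM arrays and 55, 61, 55, 55 and 48 on the medullary LCM arrays, with means of 47.0 ± 6.82 and 54.8 ± 4.60 (SD, n = 5). In sorted cells 61 and 54 were counted for the subcapsular sinus and 62 and 57 for the medullary one. The 3 lowest counts all lay in the subcapsular LCM group, and the highest subcapsular count equalled 3 of the medullary counts. The share of all genes above background differed between the same arrays, at 57.48% to 74.05% for subcapsular and 73.01% to 79.36% for medullary LCM. On slide 1 it also went with the row, since subcapsular replicates 1 to 4 lay in row 1 and replicate 5, with its 55 members, lay in row 2 beside medullary replicates 1 to 3. On slide 2 the rows overlapped, at 71.38% to 81.31% in row 1 and 82.58% and 73.84% in row 2. The part of depth and of slide position in these counts was not tested.

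**Figure D2:**
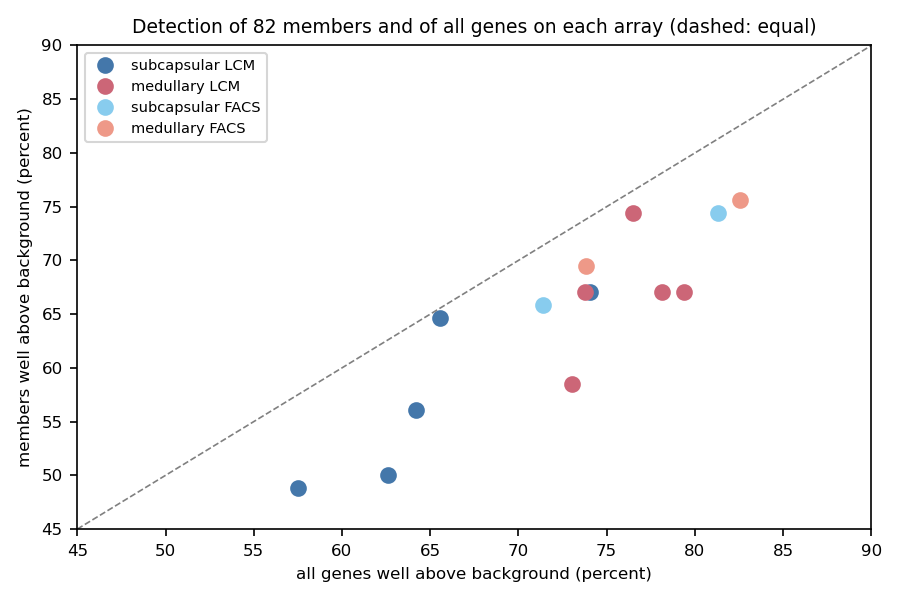
Share of the 82 members well above background (y axis, percent) against the share of all gene names (x axis, percent), 1 point for each of the 14 arrays. All points lie below the dashed line of equal shares, and the subcapsular LCM arrays reach from 48.78% to 67.07% of the members.

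Of the ligands that act through the common gamma chain, few were measured in many samples. Il7 read -6.25, -5.33, -7.15, -5.93 and -7.38 on the subcapsular LCM arrays and -6.08, -6.81, -7.02, -7.26 and -7.04 on the medullary LCM arrays, none of them above background. On the FACS arrays it read -5.24 and -6.86 in subcapsular and -6.15 and -6.53 in medullary cells, again without the mark, so the probe gave only an upper bound. Il15, which supports memory T cells and natural killer cells and is presented by Il15ra, was above background on 2 of 5 subcapsular and 4 of 5 medullary LCM arrays and on 1 of 4 FACS arrays. Its levels were -6.0, -5.51, -0.35, -6.79 and -3.65 in subcapsular and -1.66, -2.55, -3.76, -1.7 and -7.06 in medullary LCM cells, and -7.35 and -2.65 in subcapsular and -6.66 and -6.44 in medullary FACS cells. The groups overlapped. Il4, the type 2 cytokine, was above background on 2 of 14 arrays, Il2 on 5, Il9 on 2 and Il21 on 1.

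In the interleukin 1 family, Il1b, the product of activated myeloid cells, was above background on all 14 arrays, with levels of 1.15, -2.05, -2.4, -0.76 and -2.13 in subcapsular and -1.08, -0.71, 0.04, -2.99 and -2.43 in medullary LCM cells, and 1.47 and 0.18 in subcapsular and -1.21 and 1.2 in medullary FACS cells. It lay highest on subcapsular LCM replicate 1, both subcapsular FACS arrays and medullary FACS replicate 7, and the groups overlapped. Its probe was printed in 10 spots, whose SD on an array had a median of 0.09. Il1a was above background on 2 of 14 arrays, with -4.74, -5.56, -7.0, -5.4 and -7.45 in subcapsular and -6.33, -1.44, -6.93, -5.48 and -7.06 in medullary LCM cells, and -3.8 and -6.84 in subcapsular and -6.35 and -6.57 in medullary FACS cells. Il33, an alarmin stored in nuclei of stromal and endothelial cells, was above background on 3 of 5 subcapsular and 2 of 5 medullary LCM arrays, on 1 of 2 subcapsular and on 0 of 2 medullary FACS arrays. Its levels were -6.28, -5.79, -1.0, -0.49 and -3.11 in subcapsular and -1.52, -6.86, -3.43, -7.28 and -7.24 in medullary LCM cells, and -7.52 and -4.9 in subcapsular and -5.65 and -6.57 in medullary FACS cells, so that within each LCM group it was either among the measured genes or near the floor. The signal receptor of Il33, Il1rl1 (ST2), was above background on all 14 arrays with -1.15, -0.68, -2.3, -2.35 and -2.32 in subcapsular and -2.13, -1.72, -2.36, -1.6 and -2.35 in medullary LCM cells, and -1.91 and -3.53 in subcapsular and -1.13 and -1.06 in medullary FACS cells, and was called in neither sinus comparison (-0.27, adjusted p = 0.871 by limma in LCM and 1.63, adjusted p = 0.223 in FACS). Its other 2 probes were above background on 6 and 1 of 14 arrays.

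Ligands that signal through gp130 were uneven. Il6, the acute-phase cytokine, was above background on subcapsular LCM replicate 1 alone (-2.92), and its other 13 values ran from -7.25 to -5.59. Il27, made by antigen-presenting cells, was above background everywhere, at -0.79, 0.91, -0.35, -1.4 and -1.16 in subcapsular and -0.6, -0.74, -0.41, -1.33 and -1.11 in medullary LCM cells, and 0.04 and -1.29 in subcapsular and 1.07 and 2.13 in medullary FACS cells. The receptor chains were measured more often. Il6ra, the private chain for interleukin 6, was above background on all 14 arrays, at 2.65, 3.57, -0.47, 3.48 and 2.01 in subcapsular and 1.28, 1.05, 1.62, 1.26 and 2.1 in medullary LCM cells, and 2.57 and 2.66 in subcapsular and -1.7 and 0.65 in medullary FACS cells. Il6st, the gp130 chain itself, read -6.34, 6.66, 1.41, -7.07 and 1.94 on subcapsular against 1.72, 3.48, 2.75, 3.48 and 2.38 on medullary LCM arrays, with subcapsular replicates 1 and 4 below background, and 2.27 and 1.46 in subcapsular and -0.17 and 1.26 in medullary cells sorted by FACS. Without those arrays the subcapsular values spanned 1.41 to 6.66, and the medullary ones lay inside that span. Il11ra1, the receptor of interleukin 11, was at 3.37, 2.8, 3.19, 3.71 and 1.93 in subcapsular and 2.18, 2.4, 3.13, 3.29 and 3.92 in medullary LCM cells, and 3.42 and 1.99 in subcapsular and 2.49 and 2.04 in medullary FACS cells, above background on every array, with overlapping groups.

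The chains for interleukins 3, 4, 5 and 13 were also widely measured. Il3ra, long used as a marker of human plasmacytoid dendritic cells and also made by endothelium, was above background on all arrays. It read -2.12, -0.16, 2.75, 1.12 and 1.37 in subcapsular and 0.44, 0.96, 1.75, 1.63 and 1.58 in medullary LCM cells, and 1.39 and 1.99 in subcapsular and 1.79 and 1.6 in medullary FACS cells. Its lowest values were those of subcapsular LCM replicates 1 and 2. Il5ra was at 3.12, 3.18, 1.85, 1.36 and 1.34 in subcapsular and 1.93, 2.72, 2.89, 1.75 and 2.34 in medullary LCM cells, and 0.56 and 1.49 in subcapsular and 1.31 and 2.1 in medullary FACS cells, a narrow span in which the subcapsular FACS arrays held the lowest value and the groups overlapped. Il13ra1, which pairs with Il4ra into the type 2 receptor of non-blood cells, was above background on 2 of 5 subcapsular and 5 of 5 medullary LCM arrays, with -5.63, -3.98, -5.56, -0.53 and 1.92 on subcapsular against 0.57, -1.22, -0.12, -1.84 and 0.07 on medullary LCM arrays, and read -2.05 and -5.27 in subcapsular and -3.53 and -3.71 in medullary cells sorted by FACS. Il4ra read 4.36, 4.7, 3.99, 3.34 and 3.49 in subcapsular and 3.52, 4.02, 3.2, 3.7 and 3.94 in medullary LCM cells, and 4.36 and 4.27 in subcapsular and 3.29 and 3.53 in medullary FACS cells with the TG-bearing probe shown above. Its other probe, above background on 11 of 14 arrays, had means of -2.59 and -3.44 in subcapsular and medullary LCM cells and of -0.47 and -3.90 in FACS cells. For Il15ra the TG-bearing probe read 9.15, 9.62, 8.27, 8.53 and 7.81 in subcapsular and 7.98, 8.27, 8.25, 8.41 and 8.34 in medullary LCM cells, and 7.97 and 7.98 in subcapsular and 8.62 and 8.78 in medullary FACS cells, and the other probe, above background on every array, had means of 1.12 and 0.36 in LCM and 0.09 and 1.78 in FACS cells. In FACS cells the sinus difference of Il15ra was 0.72 with the one probe and 1.69 with the other.

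Several chains best known from leukocytes were measured on most arrays. Il7r, the receptor through which T cells read Il7, was above background on 3 of 5 subcapsular LCM arrays and on every other array, with -6.36, -5.81, -1.19, -0.2 and 0.67 on subcapsular against -0.3, -1.97, -2.69, 0.41 and 0.52 on medullary LCM arrays and 0.09 and -0.92 in subcapsular and -2.08 and -4.17 in medullary cells sorted by FACS. Il10ra, the private chain of the interleukin 10 receptor, read -6.21, 4.15, 1.79, 4.42 and 2.94 on subcapsular against 1.48, -0.39, -0.53, 0.27 and 0.06 on medullary LCM arrays, with 1 subcapsular array at the floor and the other 4 above all medullary arrays, and 1.32 and 1.06 in subcapsular and -0.38 and 1.4 in medullary cells sorted by FACS. Il17rc, the partner of Il17ra, was at -1.05, -1.99, -3.89, -1.37 and -2.15 in subcapsular and -1.69, -1.98, -1.73, -1.61 and -1.94 in medullary LCM cells, and -2.58 and -1.09 in subcapsular and -0.46 and -1.43 in medullary FACS cells and above background on all arrays. Il17rd, in contrast, was above background on 2 of 14 arrays. Its highest values were -4.20 on medullary LCM replicate 4 and -4.05 on subcapsular FACS replicate 6. Among the antagonists, Il1rn, which blocks the interleukin 1 receptor, was above background on all arrays, at -2.75, -1.94, -3.52, -3.86 and -1.03 in subcapsular and -3.89, -1.14, -2.04, -2.8 and -3.65 in medullary LCM cells, and -2.06 and -4.45 in subcapsular and -0.61 and -3.63 in medullary FACS cells. Its groups overlapped in each comparison. The summed levels of the T cell, B cell and macrophage markers given above varied over the same arrays, and their part in the levels of these chains was not tested. In samples of many cells, more cells of a type and more RNA per cell cannot be told apart.

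In the laser-captured cells, no interleukin or receptor passed the test between the sinuses. Of 82 members, 58 entered the test, 0 were called at an adjusted p under 0.05 (limma, Benjamini-Hochberg over all genes tested), and 6 had an unadjusted p under 0.05, 2 of them with higher and 4 with lower medullary levels. Over all 27377 genes tested, 0.175% were called (0.168% higher, 0.00731% lower) and 11.7% had an unadjusted p under 0.05. The median difference, medullary minus subcapsular, was 0.12 over the members and 0.08 over all genes. None of the 58 members had groups that did not overlap, against 3.09% of all genes (1.03% higher, 2.06% lower). The members with the lowest p are described here by role, and none of these differences was beyond the spread between replicates after adjustment.

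Among the ligands, Il17c, an epithelial cytokine of the interleukin 17 family, read -3.21, -3.51, -4.13, -5.69 and -5.0 on subcapsular against -1.17, 1.86, -2.27, -2.11 and -4.36 on medullary LCM arrays, and was above background on 2 and 5 arrays. The difference was 2.7 ± 1.04 (SE, adjusted p = 0.365 by limma). Il10, the ligand that restrains macrophages, was above background on no subcapsular and 3 of 5 medullary LCM arrays, at -6.07, -5.33, -6.64, -6.55 and -7.05 on subcapsular against -6.51, -2.28, -1.43, -1.78 and -6.73 on medullary LCM arrays. Medullary replicates 1 and 5 lay within the subcapsular range and replicates 2, 3 and 4 lay above it. It entered the test through the medullary arrays alone and was not called (adjusted p = 0.411, limma). Il18, a caspase-activated cytokine of macrophages and endothelium, read 0.86, 2.97, -0.01, 2.37 and -0.01 on subcapsular against 0.07, -2.47, -1.34, -0.14 and 0.02 on medullary LCM arrays, a difference of -2.01 ± 0.79 (adjusted p = 0.371, limma). The macrophage markers were lower in the same arrays (medullary 6.21 to 7.4, subcapsular 8.29 to 10.37), and their part was not tested. Il23a, the private chain of interleukin 23, was above background on 1 subcapsular and 3 medullary arrays, at -5.98, -5.46, -6.91, -2.78 and -7.05 on subcapsular against -0.56, -6.65, -2.27, 0.64 and -5.61 on medullary LCM arrays (adjusted p = 0.492, limma). Its partner Il12b was above background on 0 and 3 arrays, at -5.7, -5.26, -7.01, -6.91 and -6.86 on subcapsular against -4.79, -4.39, -3.94, -6.8 and -6.78 on medullary LCM arrays, and Il12a on none.

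The call of Il19 depended on how the slide was treated. Il19, of the interleukin 10 family, was above background on no subcapsular LCM array (-7.23 to -5.12) and on medullary replicates 1 to 3 (-2.56, 0.23 and -0.85), which share slide 1 with them. On slide 2 medullary replicates 4 and 5 read -7.02 and -6.12. The difference was 2.45 ± 1.33 over all LCM arrays (adjusted p = 0.505, limma), 4.66 ± 0.80 with slide as a block (adjusted p = 0.0446, limma) and 4.66 ± 0.83 on slide 1 alone (adjusted p = 0.0474, limma). Blocked on slide row it was 1.11 ± 1.12 (adjusted p = 0.852, limma). It was the 1 of 58 members called with slide as a block or on slide 1 alone, where 0.464% and 0.774% of all genes were. Il19 entered the test through the 3 medullary arrays that carry these differences, and the subcapsular values against which they are taken are bounds. Il19 was chosen for mention after its values were seen.

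Among the receptors, Il10rb, shared by interleukins 10, 22 and 26 and the lambda interferons, had the lowest p of the members. It read 2.58, 3.16, 2.29, 1.66 and 2.24 on subcapsular against 0.85, 0.73, 0.42, 1.88 and 1.48 on medullary LCM arrays, with 1 subcapsular value inside the medullary range and the other 4 above it. The difference was -1.31 ± 0.5 (SE, adjusted p = 0.361, limma). Il17ra, the common chain for interleukins 17A and 17F, read 4.23, 6.15, 4.37, 4.54 and 3.35 on subcapsular against 2.91, 2.96, 2.66, 2.68 and 4.18 on medullary LCM arrays. Medullary replicate 5 was apart from the other 4 medullary values, and the difference was -1.45 ± 0.6 (adjusted p = 0.395, limma). Il1r1, the signalling receptor for Il1a and Il1b, was at -3.07, 0.07, 1.94, -1.22 and 2.17 on subcapsular against 1.48, 1.53, 2.13, 2.07 and 2.93 on medullary LCM arrays. Its medullary values were the tighter group, and the difference was 2.05 ± 0.96 (adjusted p = 0.44, limma). Il20ra was above background on 0 subcapsular and 3 medullary arrays, at -6.16, -5.61, -7.08, -6.73 and -7.18 on subcapsular against -6.75, -3.1, -6.94, -2.98 and -3.41 on medullary LCM arrays. Its medullary mean lay below the lowest signals marked on the subcapsular arrays, so no ratio is given (adjusted p = 0.448, limma). Il21r, best known from lymphocytes, read 4.06, 5.28, 3.92, 3.4 and 3.31 on subcapsular against 3.35, 3.15, 2.47, 2.61 and 3.1 on medullary LCM arrays, and the difference was -1.06 ± 0.51 (adjusted p = 0.46, limma).

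Of the decoys, Il22ra2 is a soluble trap for interleukin 22. It was above background on 4 subcapsular and 2 medullary arrays and read -5.46, 1.8, -1.38, 0.36 and -1.21 on subcapsular against -7.13, -3.45, -6.71, -1.04 and -7.25 on medullary LCM arrays, a difference of -3.94 ± 1.55 (adjusted p = 0.373, limma). Il18bp, the trap for Il18, was above background on 2 subcapsular and 5 medullary arrays, at -6.37, -5.83, 0.93, -7.11 and 1.47 on subcapsular against -2.53, 0.65, 0.15, 1.1 and 1.91 on medullary LCM arrays. Of the subcapsular values 3 lay near the floor, and the difference was 3.64 ± 1.79 (adjusted p = 0.466, limma). Such wide groups were common in these samples of 50 cells. In 11 of 58 members (19%) the 5 subcapsular values spanned more than 7 log2 units, and in 3 (5.17%) the medullary ones did, against 18.1% and 5.94% of all genes tested. The median SD of a member was 1.21 in subcapsular and 0.82 in medullary LCM cells, against 1.46 and 1.10 over all genes.

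In the sorted cells, the members with the lowest p were Il23a, Il13 and Il1rap, higher in the medullary sinus, and Il17ra, higher in the subcapsular sinus. None passed the adjusted threshold. Il23a, Il13 and Il1rap were above background on 0 of 2 subcapsular and 2 of 2 medullary arrays, so they entered the test only through the group in which they were high. Of 61 members tested, 0 were called, as were 0 of 27657 genes (0%), and 15 had an unadjusted p under 0.05 (9 higher, 6 lower in the medullary sinus) against 31.9% of all genes. With eBayes given a trend and made robust, 5 members were called (Il13, Il15ra, Il17ra, Il1rap and Il23a), and 3 with all 14 arrays in 1 fit (Il10rb, Il17ra and Il1rap). In those fits 6.56% and 3.26% of all genes were called. The median difference was 0.75 over the members and 0.74 over all genes. In 23 members both medullary arrays lay above both subcapsular arrays and in 16 below, against 43% and 26.7% of all genes tested (69.7% in either direction). The medullary and subcapsular FACS arrays lay in different rows of the slide, so that sinus and row cannot be told apart.

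**Figure D3:**
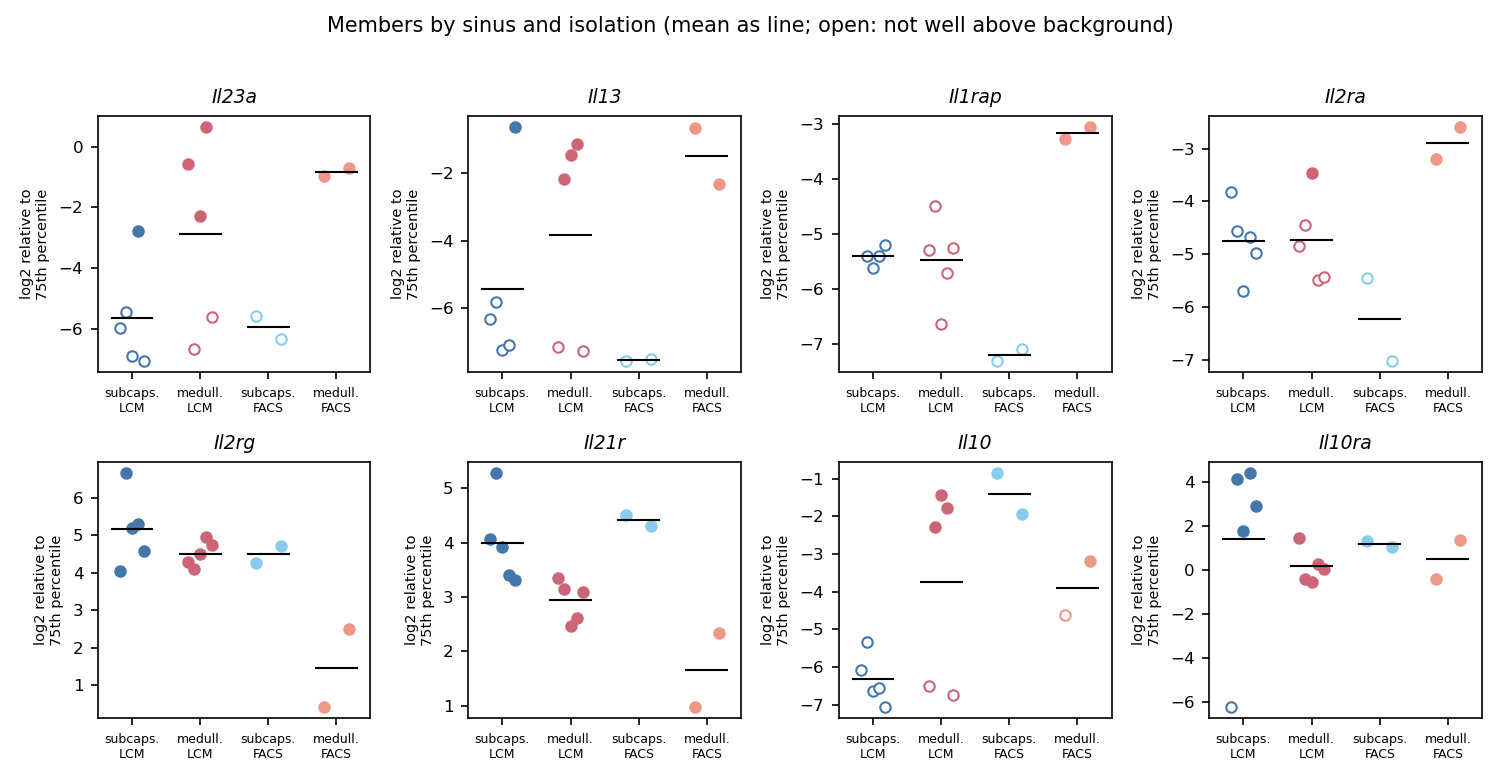
Levels (log2 relative to the 75th percentile of the array) of 8 members, 1 point for each array, in the 4 groups; filled points are well above background, open points are not, and lines are group means. Il23a, Il13, Il1rap and Il2ra are above background on both medullary FACS arrays and on neither subcapsular FACS array, and Il2rg and Il21r are lower on the medullary FACS arrays than on all others.

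Among the ligands, Il23a read -5.57 and -6.33 on the subcapsular and -0.95 and -0.69 on the medullary FACS arrays, a difference of 5.13 ± 0.62 (SE, adjusted p = 0.0645, limma). Since it was not above background in subcapsular cells, this is a ratio of at least 21.5-fold. Il13, the type 2 effector cytokine, read -7.58 and -7.53 and -0.64 and -2.31 (6.08 ± 0.81, adjusted p = 0.0678, limma), or at least 13.6-fold. In the laser-captured cells the same gene was above background on 1 subcapsular and 3 medullary arrays, at -6.34, -5.84, -7.26, -7.11 and -0.63 on subcapsular against -7.18, -2.16, -1.45, -1.13 and -7.29 on medullary LCM arrays. Over the classes, 16 of 22 ligands and 17 of 33 receptors had a difference above 0, as did 59.51% of all genes, and the gap between the classes was not tested.

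Among the receptors, Il1rap, the chain that Il1r1, Il1rl1 and Il1rl2 all need to signal, read -7.3 and -7.09 in subcapsular and -3.28 and -3.06 in medullary FACS cells. This was 4.02 ± 0.56 (adjusted p = 0.0692, limma), or at least 4.22-fold. Il2ra, the high-affinity chain for interleukin 2 and a marker of regulatory T cells, read -5.44 and -7.01 and -3.2 and -2.6. It was above background on 0 of 2 subcapsular and 2 of 2 medullary FACS arrays. It thus entered the test only through the group in which it was high. The difference was 3.32 ± 0.81 (adjusted p = 0.11, limma), at least 5.09-fold, and in LCM cells the gene was above background on 0 and 1 arrays, at -3.83, -4.56, -5.69, -4.68 and -4.98 on subcapsular against -4.84, -4.44, -3.46, -5.49 and -5.43 on medullary LCM arrays. These ratios depended on the background correction. Under normexp the differences were 2.25 for Il23a, 2.09 for Il13, 1.17 for Il1rap and 1.14 for Il2ra, each below the bound printed here, and under quantile normalization that of Il2ra was 2.32, also below it. Il1rapl1, a synaptic relative of Il1rap, read -7.33 and -4.81 and -2.12 and -1.96 (4.03 ± 1.05, adjusted p = 0.118, limma). It was above background on 1 of 2 subcapsular and 2 of 2 medullary FACS arrays, and entered the test only through the latter.

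In the other direction, the 5 members with the lowest p were all receptor chains. Il17ra read 3.57 and 3.87 in subcapsular and -0.66 and -2.72 in medullary FACS cells (-5.41 ± 0.92, adjusted p = 0.0809, limma). Il10rb read 0.9 and -0.07 and -5.83 and -3.0 (-4.84 ± 1.2, adjusted p = 0.112). Il21r read 4.52 and 4.31 and 0.98 and 2.34 (-2.75 ± 0.73, adjusted p = 0.12). All 3 lay above background in both sinuses on at least 1 array, with Il10rb not above it on medullary replicate 6. Il2rg, the common gamma chain, read 4.26 and 4.72 and 0.43 and 2.5 (-3.03 ± 0.93, adjusted p = 0.137). Il6ra read 2.57 and 2.66 and -1.7 and 0.65 (-3.14 ± 1.0, adjusted p = 0.14). Both medullary FACS arrays also had the lowest summed level of the 6 pan-endothelial markers, 1.25 and 1.88 against 4.56 to 5.67 in subcapsular FACS cells. Their T cell markers summed to 4.05 to 4.18 against 5.4 to 5.95, and their B cell markers to 4.9 to 6.59 against 7.13 to 7.81. The 6 lymphatic endothelial markers went the other way, summing to 0.13 to 0.76 in medullary against -0.96 to -0.44 in subcapsular FACS cells. The part of these markers in the chains was not tested.

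Set side by side, the sinus differences of 53 members tested in both isolations had the same sign in 33 and the opposite sign in 20. The share of equal signs over all genes was not computed, so the count is not read as agreement. Over all genes tested, 52.63% of differences in LCM and 59.51% in FACS cells were above 0. Il10rb, Il17ra and Il21r were lower in the medullary sinus in both isolations (-1.31 and -4.84, -1.45 and -5.41, -1.06 and -2.75 in LCM and FACS cells), none called in either. The 5 B cell markers were also lower in the medullary sinus in both (medians -1.39 and -1.91), none of them called, and 3 of 7 blood endothelial and venule markers were called higher in medullary LCM cells. The part of these cells in the 3 chains was not tested. Il23a was higher in both, at 2.75 and 5.13. Il10 was higher in medullary LCM cells and lower in medullary FACS cells (2.58 and -2.5), with subcapsular FACS values of -0.86 and -1.95 and medullary ones of -4.63 and -3.18.

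**Figure D4:**
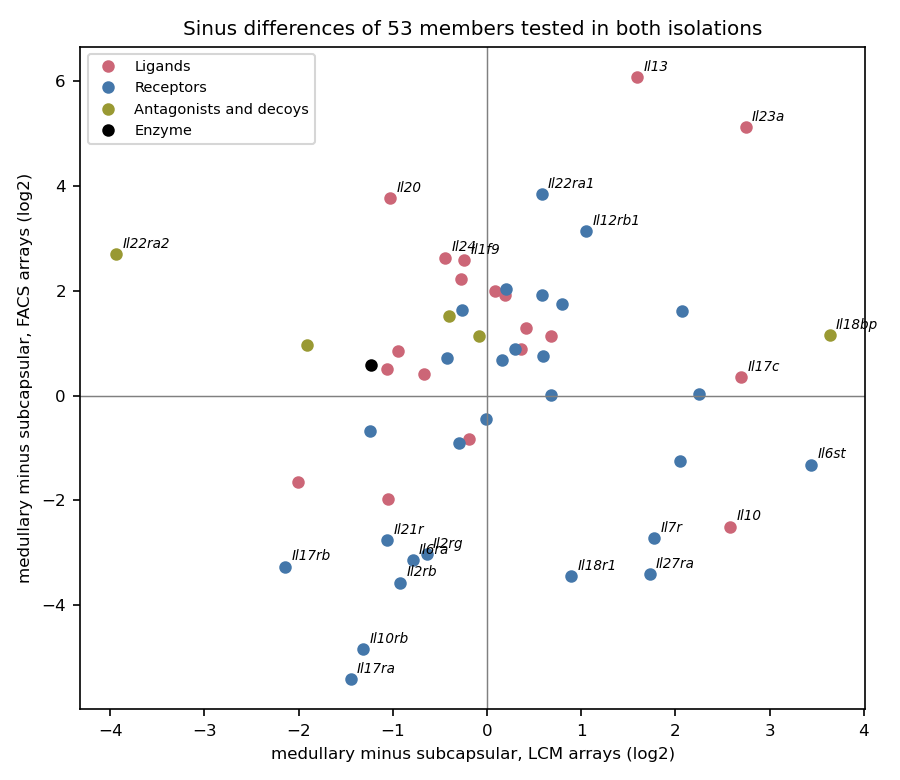
Difference between the sinuses (medullary minus subcapsular, log2) in the FACS arrays (y axis) against that in the LCM arrays (x axis), 1 point for each of 53 members tested in both, coloured by role, with names where a difference exceeds 2.4 in size. Of the points, 33 lie in the quadrants of equal sign, among them Il17ra and Il10rb at the lower left and Il23a and Il13 at the upper right. The share of all genes in those quadrants was not computed.

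Between the isolations, 4 members passed the test, and all 4 were lower in the sorted than in the laser-captured cells. They were the enzyme Il4i1 and the receptor chains Il10rb, Il17ra and Il2rb. Of 66 members tested these are 4 (0 higher, 4 lower), against 3.86% of all 29686 genes called, 1.83% higher and 2.04% lower. Another 14 members had an unadjusted p under 0.05 (18 in all, 10 higher and 8 lower in FACS), where 16% of all genes did. The median difference, FACS minus LCM with the sinuses weighted equally, was 0.09 over the members and 0.17 over all genes. Isolation goes together with digestion, sorting, cell number and, apart from 2 medullary LCM arrays, the slide, and these cannot be told apart.

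**Figure D5:**
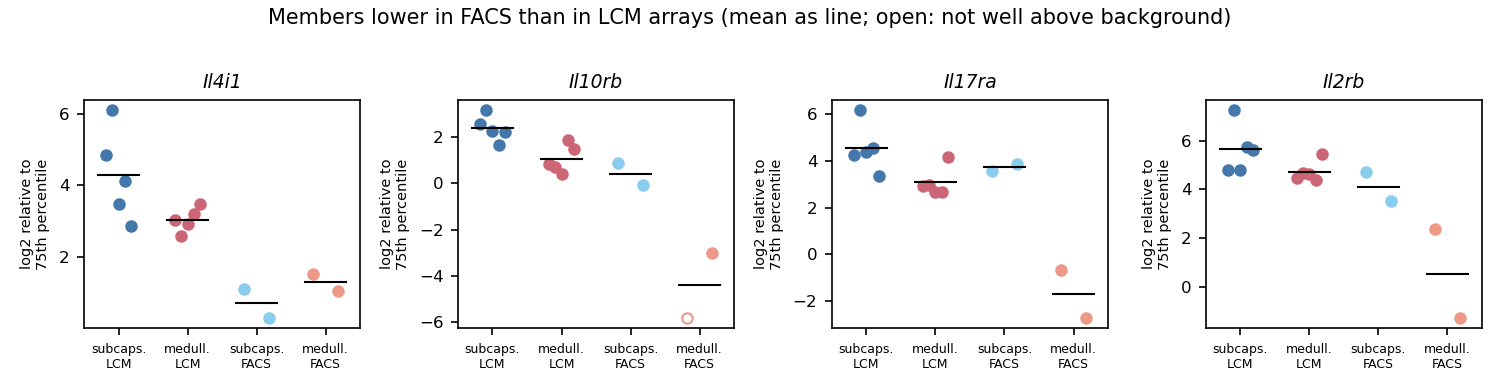
Levels (log2 relative to the 75th percentile of the array) of the 4 members called between isolations, 1 point for each array in the 4 groups; filled points are well above background, open points are not, and lines are group means. The 4 FACS values of Il4i1 (0.30 to 1.52) lie below all 10 LCM values (2.58 to 6.09), whereas Il10rb, Il17ra and Il2rb fall furthest on the medullary FACS arrays.

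Il4i1, which is made by myeloid and B cells, read 4.85, 6.09, 3.47, 4.12 and 2.86 on the subcapsular and 3.03, 2.58, 2.92, 3.19 and 3.47 on the medullary LCM arrays. On the FACS arrays it read 1.11 and 0.3 in subcapsular and 1.52 and 1.06 in medullary cells. It fell by 2.66 ± 0.49 (SE, adjusted p = 0.00799, limma), and it was the 1 member of 66 whose FACS and LCM arrays did not overlap, where 1.02% of all genes did not.

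Il10rb read 0.85, 0.73, 0.42, 1.88 and 1.48 in medullary LCM cells and -5.83 and -3.0 in medullary FACS cells, and 2.58, 3.16, 2.29, 1.66 and 2.24 against 0.9 and -0.07 in the subcapsular groups. It fell by 3.73 ± 0.53 (adjusted p = 0.00143, limma). Medullary FACS replicate 6 was not above background, so its value of -5.83 is a bound that enters the fit as measured. Every FACS array apart from subcapsular replicate 6 lay below every LCM array. Il17ra fell by 2.79 ± 0.52 (adjusted p = 0.00916, limma). Here the subcapsular FACS values (3.57 and 3.87) lay inside the range of the subcapsular LCM values (4.23, 6.15, 4.37, 4.54 and 3.35), and the medullary FACS values (-0.66 and -2.72) lay below all others. Il2rb, the signalling chain for interleukins 2 and 15, fell by 2.86 ± 0.65 (adjusted p = 0.0263, limma), from 4.82, 7.25, 4.79, 5.75 and 5.63 and 4.46, 4.66, 4.65, 4.38 and 5.46 in the subcapsular and medullary LCM cells to 4.7 and 3.51 and 2.36 and -1.29 in the FACS cells. Medullary FACS replicate 7 stood lowest, well below its partner.

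The calls rested on few sorted arrays. That of Il10rb held when any 1 array was left out. Il17ra was no longer called without subcapsular FACS replicate 6 (adjusted p = 0.0571, limma), nor Il4i1 without subcapsular FACS replicate 7 (adjusted p = 0.0632, limma). Il2rb was no longer called without medullary LCM replicate 5, subcapsular FACS replicate 6, subcapsular FACS replicate 7 or medullary FACS replicate 7 (adjusted p = 0.051, 0.0592, 0.130 and 0.0539, limma). Within slide 2, where 2 medullary LCM arrays face 2 medullary FACS arrays, the differences were -6.10 for Il10rb, -5.12 for Il17ra, -4.38 for Il2rb and -2.04 for Il4i1. They had adjusted p of 0.165, 0.181, 0.285 and 0.261 (limma), and 0 genes of all those tested were called there, while 15 of 66 members and 17.4% of all genes had an unadjusted p under 0.05.

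Other members with low p did not pass. Il2rg read 4.26 and 4.72 and 0.43 and 2.5 in subcapsular and medullary FACS cells, against 4.05, 6.65, 5.2, 5.29 and 4.57 and 4.28, 4.09, 4.49, 4.94 and 4.74 in LCM cells (-1.85, adjusted p = 0.0604, limma). Il16, a chemoattractant made by lymphocytes and read by CD4, was at 4.87, 5.27, 3.56, 4.78 and 3.03 in subcapsular and 3.61, 3.11, 3.24, 3.65 and 2.64 in medullary LCM cells, and 2.66 and 3.53 in subcapsular and 1.64 and 0.61 in medullary FACS cells (-1.67, adjusted p = 0.0636, limma). Il1r1 was lower in FACS cells, where it read -1.62 and -1.7 and -5.92 and 0.11 (-3.29, adjusted p = 0.116), with medullary replicate 6 not above background. The lineage cocktail of the sort was directed at T cells, B cells and myeloid cells among others. Of 9 macrophage markers, 8 lay lower in FACS cells and 1 higher, and 2 were called lower. These 2 were Lyz2 and Timd4 (-3.33 and -5.27, adjusted p = 0.00519 and 9.2e-05, limma). None of the 7 T cell and 5 B cell markers was called in either direction. All 5 B cell markers lay lower in FACS cells (median -0.94), while 5 of 7 T cell markers lay higher and 2 lower (median 0.56). Of the other lists, 2 of 5 dendritic cell markers were called higher, and 2 of 6 pan-endothelial and 2 of 6 fibroblastic and mural markers were called lower. The part of these markers in Il4i1, Il2rb, Il2rg and Il16 was not tested.

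On the other side, Il31ra, the receptor of the itch cytokine interleukin 31, read -3.91, -2.83, -2.9, -2.19 and -2.56 in subcapsular and -1.16, -1.62, -2.33, -3.36 and -3.03 in medullary LCM cells, and -1.37 and -2.44 in subcapsular and -0.21 and 0.22 in medullary FACS cells (1.64, adjusted p = 0.0726, limma). Il17f was above background on 1 of 10 LCM and 3 of 4 FACS arrays, at -6.28, -5.79, -6.02, -7.06 and -7.41 in subcapsular and -7.14, -0.91, -6.87, -6.61 and -5.68 in medullary LCM cells, and -3.33 and 1.24 in subcapsular and -1.55 and -5.43 in medullary FACS cells (3.71, adjusted p = 0.0965). Il10 was above background on 3 of 4 FACS arrays, where it read -0.86 and -1.95 in subcapsular and -4.63 and -3.18 in medullary cells (2.38, adjusted p = 0.171). Il22ra1, the private chain for interleukin 22 that is best known from epithelium, read -1.38, -3.15, -6.64, -6.46 and 0.73 in subcapsular and -0.68, -3.91, -1.18, -2.63 and -5.61 in medullary LCM cells, and 0.49 and -4.0 in subcapsular and 1.99 and 2.18 in medullary FACS cells (3.25, adjusted p = 0.205). Il1rapl1 differed by 2.13 (adjusted p = 0.138). Its LCM values were -6.37, -5.83, -3.01, -7.11 and -7.46 on subcapsular against -6.11, -6.94, -4.96, -7.37 and -6.7 on medullary LCM arrays, and it was above background on 1 of 10 LCM and 3 of 4 FACS arrays. Il17f entered this test only through the subcapsular FACS group, and Il1rapl1 only through the medullary FACS group.

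In the test of whether the sinus difference itself differed between isolations, 1 of 66 members was called, Il1rap, which was higher. Over all genes 1.3% were called and 0.559% were called higher, so the members' count is near the background. Of the members 15 had an unadjusted p under 0.05, against 21.3% of all genes. This test uses the same arrays as the comparisons above. The interaction of Il1rap was 4.1 ± 0.8 (SE, adjusted p = 0.0328, limma). Its probe read -5.4, -5.62, -5.39 and -5.19 on 4 subcapsular LCM arrays, the fifth having been marked as an outlier spot and dropped, and -5.28, -4.49, -6.63, -5.7 and -5.26 on the medullary LCM arrays, none above background. On the FACS arrays it read -7.3 and -7.09 in subcapsular cells, not above background, and -3.28 and -3.06 in medullary cells. Il1rap thus entered the test only through the medullary FACS arrays, the group in which it is high. The call sets those 2 arrays against values that are not above background and enter the fit as measured. Among these, both subcapsular FACS values lay below all LCM values, so the call rests on the unmarked values as well.

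The other Il1rap probes were less clear. The probe for NM_134103 was above background on medullary FACS replicate 7 alone, with -5.56 and -2.71 on the 2 medullary FACS arrays, and a FACS difference of 2.77. That for NM_008364 was above background on no array, with a FACS difference of 0.78. With the mean of all 3 probes the interaction was 2.77 (adjusted p = 0.0837, limma), and with normexp background correction it was 1.35 (adjusted p = 0.119, limma). Il1rap was not called either with the 75th percentile over probes above background on every array (3.51, adjusted p = 0.0699), with trend and robust eBayes (adjusted p = 0.0514) or without array weights (adjusted p = 0.0853, limma). The call also ended in 6 of 14 fits that left out 1 array, with adjusted p up to 0.168. These were the fits without subcapsular LCM replicate 4, medullary LCM replicates 1, 4 and 5 and each of the subcapsular FACS arrays (adjusted p = 0.0509, 0.0542, 0.0553, 0.0526, 0.133 and 0.168, limma).

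Next in the order of p stood Il17ra, with an interaction of -3.96 ± 1.04 (adjusted p = 0.074, limma), and Il10rb with -3.52 ± 1.06 (adjusted p = 0.105). Under quantile normalization both were called, at -5.24 and -4.88 (adjusted p = 0.00805 and 0.0329, limma), with Il2ra at 3.17 (adjusted p = 0.0444), in a fit where 3.85% of all genes were called against 1.3%. Il2ra entered this test only through the medullary FACS arrays, the group in which it was high. Il17ra was also called under normexp (-3.24, adjusted p = 0.0426) and with the 75th percentile over probes above background on every array (-4.58, adjusted p = 0.0288, limma). Without medullary FACS replicate 6 Il2rb was called as well (-4.47, adjusted p = 0.0346, limma). Il3, the mast cell and basophil growth factor, had an interaction of 4.87 (adjusted p = 0.0938). It read -4.97, -3.92, -4.7, -5.07 and -1.96 on subcapsular against -6.79, -6.07, -5.71, -4.42 and -4.66 on medullary LCM arrays, and -4.5 and -7.33 in subcapsular and -3.4 and -1.5 in medullary cells sorted by FACS. Il3 was above background on 2 of 5 arrays of each LCM group, 1 of 2 subcapsular and 2 of 2 medullary FACS arrays. It too entered only through the medullary FACS group. Il20, of the interleukin 10 family, had 4.8 (adjusted p = 0.108), with -3.65, -4.08, -4.52, -0.75 and -5.33 on subcapsular against -4.62, -5.12, -4.79, -4.25 and -4.71 on medullary LCM arrays and -4.52 and -7.51 in subcapsular and -1.31 and -3.18 in medullary cells sorted by FACS. Il10 had -5.08 (adjusted p = 0.134), Il2rg -2.38 (adjusted p = 0.2) and Il27ra, the private chain for interleukin 27, -5.14 (adjusted p = 0.201). Il27ra read 1.3, -5.15, 2.63, 1.42 and 1.42 on subcapsular against 2.5, 2.73, 0.96, 0.91 and 3.15 on medullary LCM arrays, where 1 subcapsular array stood at the floor, and 1.01 and 2.74 in subcapsular and -3.1 and 0.02 in medullary cells sorted by FACS.

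Genes that carry interleukin signals without being named for them were examined as a list of 45. They were 13 shared chains and partners, 11 kinases and transcription factors, 11 feedback genes and 10 genes of the MyD88 branch. In LCM cells 0 of 43 tested were called (median difference 0.03), and in FACS cells 0 of 42 (median -1.72, where that of all genes was 0.74). In FACS cells 10 of 11 kinases and transcription factors lay lower in the medullary sinus, with a median of -3.60. Tyk2, the kinase bound by Il10rb and other chains, read 1.5 and 1.74 in subcapsular and -6.47 and -6.32 in medullary FACS cells. Traf6, of the MyD88 branch, read 0.98 and 0.24 against -6.68 and -6.51. Neither was above background on a medullary FACS array, so both entered the test through the subcapsular group alone, and the ratios were at least 67-fold for Tyk2 and at least 33.3-fold for Traf6. These bounds hold for the main background correction and were not examined under another. Under normexp the differences of Il23a, Il13, Il1rap and Il2ra fell below theirs. Tyk2 and Traf6 both had an adjusted p of 0.0645 (limma). That was the lowest value in the comparison, but other genes shared it, Il23a among them, so it does not place Tyk2 and Traf6 first. Jak2 lay on the other side in both isolations, at 2.72 in FACS and 1.73 in LCM cells (adjusted p = 0.108 and 0.387, limma), and Jak1 was lower in medullary LCM cells (-1.34, adjusted p = 0.323). Between isolations 3 of 45 were called, against 3.86% of all genes. Nlrp3, the inflammasome sensor that matures Il1b and Il18, rose by 3.09 ± 0.69 in FACS cells (adjusted p = 0.0243, limma), while Tyk2 fell by 4.11 ± 0.84 and Lifr, a gp130 partner, fell by 3.41 ± 0.81 (adjusted p = 0.0145 and 0.0334, limma). The interaction was called for 1 of 45, Tyk2 (adjusted p = 0.0473, limma), against 1.3% of all genes. The medullary FACS values of Tyk2, not above background, enter both fits as measured. The calls of the listed genes were not examined under the alternatives.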

How the data were processed

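Per the file headers, the 14 scanner files come from Agilent Feature Extraction 10.7.3.1. It gave each spot a background-adjusted intensity, with probe positions on mm9. A series matrix of log2 values was deposited as well. Its normalization is not given in the sources used here; it ranked the probes of each array as the scanner files do (Spearman correlation of at least 0.999983) and had a median of 5.43 on every array. Its scale and centring were not settled beyond that, and it was used as an alternative only.

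The log2 of each intensity was taken, and the 75th percentile over non-control probes was subtracted. Outlier spots were left out, and repeated spots were averaged. A gene entered the LCM test when its probe was above background on 3 of 5 arrays of a sinus, the FACS test when it was so on 2 of 2, and the tests over 14 arrays when either held. These were fitted with 4 group means and array weights by isolation. Differences were tested by lmFit and eBayes of limma 3.58.1 (R 4.3.3, with version 1.17.8 of data.table), with Benjamini-Hochberg adjustment over all genes and calls at an adjusted p under 0.05. Fits were tested on simulated data. A fold against a group with no array above background is a lower bound, taken against the lowest signal marked on each array or the measured one where higher. The number of arrays limits the precision. Plots were made in Python 3.11.15 with matplotlib 3.10.9.

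Per-array values are given for called members, the 5 members of lowest p in each direction of each comparison, the 10 with the highest mean level among those on every array, and 36 fixed members. The members, gene lists and markers were chosen with earlier results of these data known, and no list was tested as a set. A B cell marker is not reported here, and sums and counts of that list leave it out. Annotation of mm9 was not used here, so windows are not placed in exons or UTRs.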

Additional observations from a re-analysis of the deposited data

Results flagged for a closer look

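In the LCM groups, with 4 or 5 values each, 1 array stood far from its neighbours in 7 of 94 groups of named members. The measure was the gap to the next value over the whole range. For normally distributed values chance alone marks about 1 group in 20, but several groups here mix measured values with the floor. The share over all genes was not computed, so the count is not read against chance. On the low side, Il10ra read -6.21 on subcapsular replicate 1, where the others ran from 1.79 to 4.42. Il27ra read -5.15 on subcapsular replicate 2, where the others ran from 1.30 to 2.63. On the high side, in genes otherwise not above background in that group, Il13 read -0.63 on subcapsular replicate 5 against -7.26 to -5.84 on the others. Medullary replicate 2 was high for Il17f (-0.91 against -7.14 to -5.68) and for Il1a (-1.44 against -7.06 to -5.48), the others again not above background. Among genes measured on all arrays of the group, medullary replicate 5 was high for Il17ra (4.18 against 2.66 to 2.96) and for Il2rb (5.46 against 4.38 to 4.66). Across the 2 isolations, the sinus difference of Il1rap differed by 4.10 in the interaction test, as described above.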

How the results depend on the processing

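No called member changed sign under any alternative. In LCM cells, members called numbered 0 under every alternative apart from slide as a block and slide 1 alone, with 1 each (Il19). In FACS cells they numbered 0, apart from 5 under robust eBayes with a trend and 3 when fitted over all 14 arrays. Between isolations they numbered 4, with 7 under normexp (Il16, Il1r1 and Il2rg added) and 6 under robust eBayes with a trend (Il16 and Il2rg added). They were 5 with the other percentile and 5 from the deposited values, with Il2rg added in each. On the medullary arrays of slide 2 alone they numbered 0, and 3 to 5 when 1 LCM array was left out. For the interaction they numbered 1 (Il1rap; under normexp and with the other percentile, 1 as well, but Il17ra), with 4 under quantile normalization, 4 from the deposited values, 0 with the mean of all probes, 0 under robust eBayes with a trend, 0 without array weights, and 0 to 3 when 1 array was left out. Leaving out 1 array left 0 to 0 members called in either sinus comparison. The mean number of members above background on an array was 53.07, and 67.79 with the scanner's weaker mark of a positive and significant signal. Deviations of same-numbered samples were not correlated across genes (correlations from -0.02 to 0.005), which does not settle whether those samples were paired. With the replicate block 0 members were called in LCM and 0 in FACS cells. The causes of these changes were not tested. Over all genes, calls in LCM cells numbered 48 (46 higher, 2 lower). They were 8 under normexp (6 and 2), 16 from the deposited values (11 and 5), 15 under quantile normalization (10 and 5), 225 when the percentile was taken over probes marked on every array, 104 with the stricter filter, 127 with slide as a block, 212 on slide 1, 14 with the row as a block, 0 with the replicate block and 17 to 96 with 1 array left out. In FACS cells they were 0, then 1813 under robust eBayes with a trend and 901 over all 14 arrays. Between isolations they were 1147 (542 and 605), 982 under normexp (359 and 623), 1353 with the other percentile (795 and 558), 747 without weights and 595 to 1546 with 1 array left out. For the interaction they were 385 (166 and 219), 683 under normexp (382 and 301), 452 with the other percentile (108 and 344), 1131 from the deposited values, 1143 under quantile normalization, 256 without a filter, 109 without weights and 11 to 1078 with 1 array left out. That percentile moved the median of all genes in LCM from 0.08 to 0.81, and quantile normalization moved that in FACS from 0.74 to 0.43. With 2 FACS arrays a group, 50 cells an LCM sample and many levels at the floor, the members' sinus differences were not told from the spread.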

Other observations

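The less studied members showed a few further patterns, given as values. Il24, which the array holds with 2 probes, was above background on every array with the first of them, at 4.44, 0.14, -1.56, 2.47 and 2.69 in subcapsular and 2.6, 1.22, 0.96, -0.88 and 2.06 in medullary LCM cells, and 1.92 and -0.7 in subcapsular and 2.42 and 4.05 in medullary FACS cells. The second Il24 probe was above background on 4 of 14 arrays. Il17d was above background on every array with 1 probe and on none with the other, both for NM_145837. Il1r2, a decoy that binds interleukin 1 without signalling, was above background on 12 of 14 arrays, with 1.78 and 4.48 in medullary FACS cells and 2.63 and 1.70 in subcapsular FACS cells, and with -4.71 on subcapsular LCM replicate 1 and -7.19 on medullary LCM replicate 4. Il28ra, the receptor of the lambda interferons, was above background on 2 arrays, with 0.19 on subcapsular FACS replicate 7 and -0.13 on medullary FACS replicate 6, while their FACS partners read -7.48 and -5.81. Il12rb1 read 2.62 and -0.88 on the medullary FACS arrays, -1.89 and -2.66 on the subcapsular FACS arrays and -4.30 to -0.55 on the LCM arrays. These members were chosen after their values were seen.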
